A study of Mus musculus with 6 samples.

Results

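The 10 transcription factor genes described here direct myeloid development, and their levels were compared in bone marrow progenitors with and without a mutant Srsf2 allele. They are Spi1, Cebpa, Cebpb, Cebpd, Cebpe, Gfi1, Irf8, Runx1, Etv6 and Klf4. The genes were taken by symbol from the count table, where all 10 have 1 row each among 26027 genes. They were chosen by name, with earlier results of these data known. The mutant cells came from tamoxifen-treated C57BL/6 mice of genotype hScl-CreERT R26eYFP Srsf2 P95H/+ (3 libraries, called P95H/+) and the controls from treated hScl-CreERT R26eYFP Srsf2 +/+ mice (3 libraries, wild type). Every mouse of both groups thus carried hScl-CreERT, a Cre recombinase driven by Scl regulatory sequence and switched on by tamoxifen, and R26eYFP, a reporter that marks cells after recombination. Lin-/cKit+/eYFP+ cells were sorted, that is, cells without mature lineage antigens that bore the Kit receptor and the reporter. The reporter reads recombination at its own locus and not at Srsf2. All P95H/+ mice were 32 weeks old, with replicates 1 and 2 female and replicate 3 male. Wild-type replicate 1 was a female of 54 weeks, and wild-type replicates 2 and 3 were males of 32 weeks. Age or sex sets wild-type replicate 1 and P95H/+ replicate 3 apart from the other mice of their groups. The labels do not say outright that each remaining replicate is a separate mouse. If some are not, the tests below weigh technical spread in part.

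Myeloid development is governed by a small set of factors that act together on shared enhancers. PU.1, the product of Spi1, and C/EBP alpha open the granulocyte and monocyte programme in multipotent cells, on a base laid down by Runx1 and Etv6. Gfi1 and the other C/EBP factors then favour neutrophils, while Irf8 and Klf4 favour monocytes. SRSF2 is a splicing factor whose P95H substitution recurs in myelodysplastic and myeloproliferative disease.

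Library totals ran from 10747941 to 23010510 counts, and the 10 factors had between 557 and 11845 counts in each library. Levels are in CPM, a gene's count scaled to a common library total. Srsf2 itself averaged 331 ± 14.2 CPM in P95H/+, against 332 ± 9.79 CPM in wild type (SD, n = 3 each), and a count per gene does not read the substitution. The replicate 3 libraries of both genotypes stood apart. In them, genes whose transcripts exceed 55% GC were higher than in replicates 1 and 2 by a median of 0.76 on the log2 scale in P95H/+ and 0.48 in wild type, against -0.04 to 0.05 in the other 4 libraries. Genes of at most 40% GC were lower, with median log2 differences of -1.19 and -0.94, against -0.07 to 0.08 in the other 4 libraries. The genotype differences of the factors are therefore given with all 6 libraries and also with the 4 libraries of replicates 1 and 2. Kit, the sort marker, had 475.7, 531.3 and 548.4 CPM in P95H/+, against 520.5, 482.4 and 532.2 CPM in wild type. Among lineage antigens, Cd3e and Cd8a stayed below 0.4 CPM in every library, and Ptprc, the pan-leukocyte CD45 gene that progenitors share, reached at most 381 CPM in P95H/+, against 468 CPM in wild type. In these bulk samples, fewer cells of a type and less RNA per cell cannot be told apart.

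All 10 factors were expressed in every library, at levels that differed little between neighbours in rank. Per kilobase of annotated exon, Etv6, an ETS-family repressor needed by adult stem cells, averaged 76.1 CPM per kilobase over the 6 libraries (range 69.9 to 86.0), and Cebpa averaged 74.9 (57.1 to 113). Spi1 averaged 61.4 and Irf8 47.7 CPM per kilobase. Cebpe, Klf4, Gfi1 and Cebpb followed at 37.3, 36.1, 33.5 and 29.5 CPM per kilobase. Runx1, the DNA-binding subunit of core binding factor, averaged 24.9 and Cebpd 13.1 CPM per kilobase. Ranges of neighbours in this order overlapped in each case except that of Runx1 above Cebpd, where Runx1 was the higher in 6 of 6 libraries. Cebpb was above Runx1 in 1 of 6 libraries, P95H/+ replicate 3, which sets its place in the order. The exon length used joins all annotated isoforms, which lowers the value of genes with many long isoforms such as Runx1, at 12025 bases.

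With all 6 libraries, no factor differed between genotypes beyond the spread of the replicates. Of the 10 factors, 0 passed an adjusted p of 0.05 in edgeR's quasi-likelihood test, 0 had an unadjusted p under 0.05, and each had an adjusted p of 1. Over all 17144 genes tested, 0 passed (0.0%) and 361 had an unadjusted p under 0.05 (2.11%). DESeq2 called 0 of the 10 and had 0 at an unadjusted p under 0.05, with 7 of all genes called (0.0269%) and 1.51% at an unadjusted p under 0.05. The groups overlapped for all 10, where groups of 7.84% of all tested genes did not. The log2 fold changes of P95H/+ over wild type were positive for 7 factors and negative for 3, with a median of 0.17 against 0.02 for all genes. These counts include Runx1 and Klf4, whose values round to 0.00. With the 4 libraries of replicates 1 and 2 the median was -0.01, against 0.00 for all genes, and 1 factor passed edgeR's test, Klf4, which fell, beside 144 of all 17371 genes tested (0.829%).

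**Figure D1:**
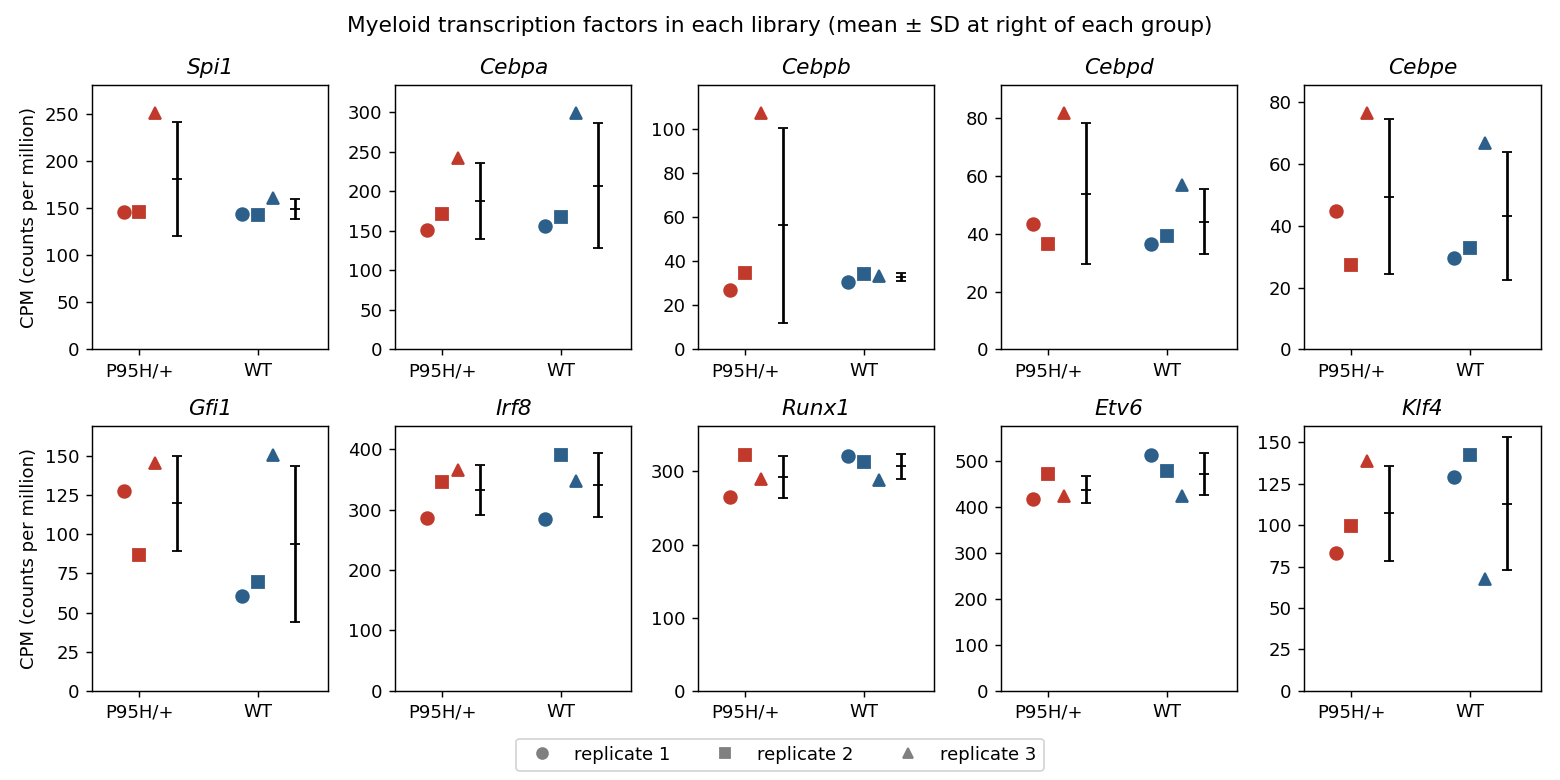
CPM of each factor (y axis, from 0) in the 3 P95H/+ libraries (red, left) and the 3 wild-type libraries (blue, right), with the mean ± SD beside each group. Replicate 3, drawn as a triangle, is the highest library of its genotype for Spi1, Cebpa, Cebpd, Cebpe and Gfi1 in both genotypes, while for Klf4 it is the highest P95H/+ library at 138.8 CPM and the lowest wild-type library at 67.3 CPM.

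**Figure D2:**
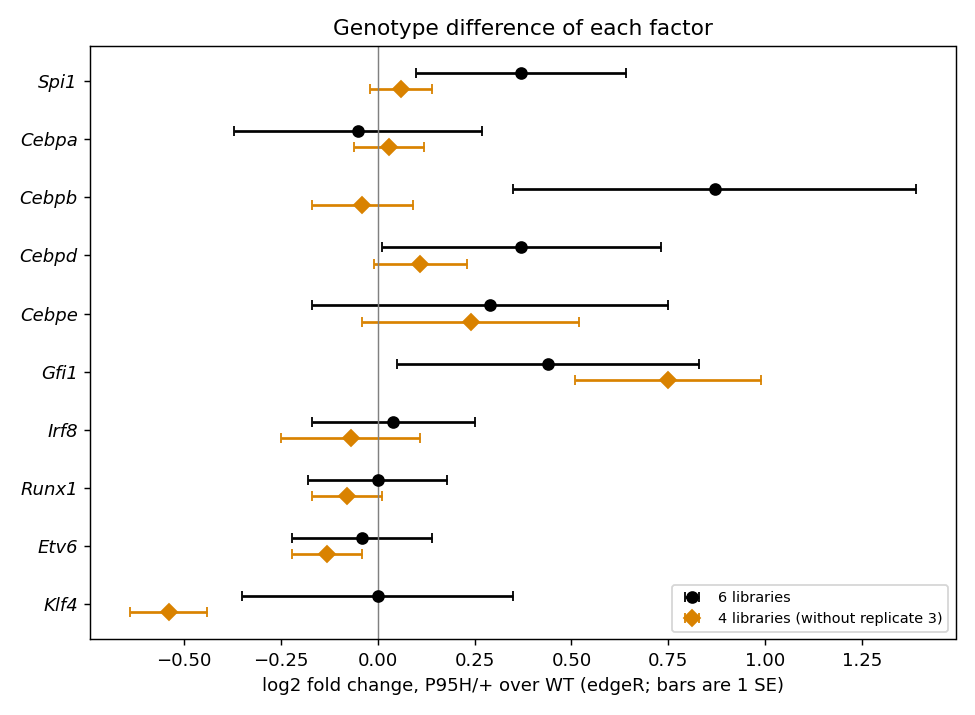
Log2 fold change of P95H/+ over wild type (x axis) for each factor, with all 6 libraries (black circles) and with the 4 libraries of replicates 1 and 2 (orange diamonds). Bars are 1 SE of edgeR's fit, and Klf4 at -0.54 is the 1 value that passed an adjusted p of 0.05.

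Promoter windows are shown for 4 factors. Klf4 and Gfi1 were taken for their differences between the groups in the 4 libraries, where Gfi1 did not pass the test. Cebpb was taken for its level, which parted P95H/+ replicate 3 from the rest, and Runx1 for its even level. The sequences are those of RefSeq on GRCm38.p6, 250 bases before to 50 after the start, 5′ to 3′ on the gene's strand. Capitals mark matches on either strand to GAGGAA (ETS and PU.1), TTGCNNAA (C/EBP), TGTGGT (RUNX) or AAATCA (GFI1).
Klf4 (chr4:55532426-55532725, minus strand): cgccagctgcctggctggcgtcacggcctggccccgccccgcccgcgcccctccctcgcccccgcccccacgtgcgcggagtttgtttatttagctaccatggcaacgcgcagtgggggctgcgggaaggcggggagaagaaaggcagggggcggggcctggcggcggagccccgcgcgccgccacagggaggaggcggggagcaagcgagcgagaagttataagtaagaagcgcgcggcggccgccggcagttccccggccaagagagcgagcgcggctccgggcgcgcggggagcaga
Gfi1 (chr5:107725756-107726055, minus strand): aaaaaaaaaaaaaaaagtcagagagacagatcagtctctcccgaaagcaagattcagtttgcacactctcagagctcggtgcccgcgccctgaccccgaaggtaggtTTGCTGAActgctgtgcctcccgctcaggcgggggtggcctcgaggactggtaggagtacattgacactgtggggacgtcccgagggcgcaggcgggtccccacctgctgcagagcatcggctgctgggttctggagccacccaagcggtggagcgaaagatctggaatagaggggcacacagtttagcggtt
Cebpb (chr2:167688665-167688964, plus strand): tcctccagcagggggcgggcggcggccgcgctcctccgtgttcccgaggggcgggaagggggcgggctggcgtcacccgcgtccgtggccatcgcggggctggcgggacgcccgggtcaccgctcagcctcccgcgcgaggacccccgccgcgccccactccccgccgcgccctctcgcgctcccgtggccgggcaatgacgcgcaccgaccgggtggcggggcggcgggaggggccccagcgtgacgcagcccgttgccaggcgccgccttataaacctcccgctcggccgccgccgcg
Runx1 (chr16:92826025-92826324, minus strand): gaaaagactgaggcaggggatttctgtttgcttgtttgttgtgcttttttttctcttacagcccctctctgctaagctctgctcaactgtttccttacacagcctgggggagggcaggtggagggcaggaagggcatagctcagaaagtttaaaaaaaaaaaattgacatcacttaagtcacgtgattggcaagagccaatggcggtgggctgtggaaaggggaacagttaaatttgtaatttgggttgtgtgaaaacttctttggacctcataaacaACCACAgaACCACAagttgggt
The Gfi1 window holds 1 match to the C/EBP motif and the Runx1 window 2 to the RUNX motif, while the Klf4 and Cebpb windows hold none of the 4 motifs. GC content was 80.7% in the Cebpb window, 74.3% in that of Klf4, 58.0% in that of Gfi1 and 45.0% in that of Runx1, against a median of 52.7% for all 32851 promoter windows. A window was found for 7 of the 10 factors, and Spi1, Cebpd and Cebpe had none. Over these 7, the ETS motif was found in 0, against 28.3% of all windows, the C/EBP motif in 1 (10.8% of all), the RUNX motif in 1 (16.8%) and the GFI1 motif in 2, Irf8 and Etv6 (14%). A match is a run of letters, not a shown binding site.

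The factors of early progenitors differed between the genotypes by less than their spread with 6 libraries. Runx1 had 265.1, 323.2 and 289.5 CPM in P95H/+, against 320.9, 312.3 and 288.1 CPM in wild type. The P95H/+ values span the wild-type ones, and the log2 fold change was 0.00 (SE 0.18) with 6 libraries and -0.08 (SE 0.09) with 4. Etv6 had 418.3, 471.3 and 423.8 CPM in P95H/+, against 514.8, 478.9 and 424.3 CPM in wild type. Its log2 fold change was -0.04 (SE 0.18), and -0.13 (SE 0.09) with 4 libraries, where both P95H/+ values lay below both wild-type values. Runx1 and Etv6 had the smallest spread of the 10, with the highest library at 1.22 and 1.23 times the lowest. Spi1 had 146.5, 146.5 and 251.3 CPM in P95H/+, against 143.7, 142.9 and 161.4 CPM in wild type. P95H/+ replicate 3 alone stands high, and the log2 fold change of 0.37 (SE 0.27) became 0.06 (SE 0.08) with 4 libraries.

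Klf4 (chr4:55527143-55532466 on mm10, minus strand), a zinc finger factor that promotes monocyte differentiation, gave the difference that passed without replicate 3. It stood at 83.1 and 99.6 CPM in P95H/+ replicates 1 and 2 and at 129.2 and 142.7 CPM in wild-type replicates 1 and 2. Both P95H/+ values lie below both wild-type values, a log2 fold change of -0.54 (SE 0.10, edgeR adjusted p 0.044), where 112 of 17371 genes passed as lower (0.645%). The replicate 3 libraries stand the other way round, at 138.8 CPM in P95H/+, against 67.3 CPM in wild type, a log2 difference of 1.04. With all 6 libraries the log2 fold change was 0.00 (SE 0.35). Both mutant libraries of the 4 were from females of 32 weeks. The wild-type ones were from a female of 54 weeks and a male of 32 weeks. Genotype cannot be told apart from sex and age together in these 4 libraries. The call ended, at an adjusted p of 0.0519, when the 4 libraries were scaled by their totals alone, and without P95H/+ replicate 1, at 0.161 in edgeR.

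Gfi1 (chr5:107716657-107726036, minus strand), a zinc finger repressor that favours neutrophils over monocytes, stood higher in P95H/+ than in wild type in the same 4 libraries without passing the test. It had 127.7, 86.5 and 145.5 CPM in P95H/+, against 60.5, 69.7 and 151.1 CPM in wild type. Replicates 1 and 2 of P95H/+ lie above those of wild type, while the replicate 3 libraries are both high and close together. With 6 libraries the log2 fold change was 0.44 (SE 0.39), and it ran from 0.21 without wild-type replicate 1 to 0.95 without wild-type replicate 3. With 4 libraries it was 0.75 (SE 0.24, edgeR adjusted p 0.284, unadjusted p 0.035), where 15.6% of all genes had an unadjusted p under 0.05. With sex added to that fit it was 0.87 (edgeR adjusted p 0.526, unadjusted p 0.192). As for Klf4, genotype cannot be told apart from sex and age together in these 4 libraries. Fitted with all 6 libraries and the replicate number as a block, the log2 fold change of Gfi1 was 0.52 (SE 0.21, edgeR adjusted p 0.869). In that fit 0 of the 10 factors passed, where 1 gene of all did, as higher (0.00583%), and 1 factor, Gfi1, had an unadjusted p under 0.05 (5.51% of all genes). A430072P03Rik, which overlaps exons of Gfi1 on the opposite strand by 101 bases, had 6.69, 5.26 and 10.2 CPM in P95H/+, against 4.17, 4.03 and 8.67 CPM in wild type. Gfi1, Klf4, Spi1 and Etv6 were the 4 factors whose groups did not overlap in the 4 libraries, where 48.1% of all genes did not.

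Irf8, which drives monocyte and dendritic cell fates and restrains neutrophil production, had 285.8, 345.8 and 365.8 CPM in P95H/+, against 284.9, 391.1 and 346.7 CPM in wild type. The groups share their range, with a log2 fold change of 0.04 (SE 0.21) with 6 libraries and -0.07 (SE 0.18) with 4. The value changed sign, to -0.04, when libraries were scaled by totals alone.

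The C/EBP genes encode leucine zipper factors that bind DNA as dimers, and Cebpa, which is needed to form granulocyte and monocyte progenitors, was the most abundant of the 4 here. It had 150.6, 171.5 and 241.8 CPM in P95H/+, against 155.4, 167.3 and 298.5 CPM in wild type. The replicate 1 and 2 libraries of both genotypes fall within a narrow range, below both replicate 3 libraries, and the log2 fold change was -0.05 (SE 0.32) with 6 libraries and 0.03 (SE 0.09) with 4. Cebpe, which drives late neutrophil maturation and secondary granule genes, had 44.8, 27.2 and 76.5 CPM in P95H/+, against 29.7, 32.7 and 67.0 CPM in wild type. The 2 P95H/+ libraries of replicates 1 and 2 lie on either side of their wild-type counterparts, with a log2 fold change of 0.29 (SE 0.46), and 0.24 (SE 0.28) with 4 libraries. Cebpd, induced in maturing granulocytes and in inflammation, had 43.4, 36.4 and 81.7 CPM in P95H/+, against 36.6, 39.1 and 57.0 CPM in wild type. Its log2 fold change was 0.37 (SE 0.36), and 0.11 (SE 0.12) with 4 libraries.

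Cebpb (chr2:167688915-167690418, plus strand), a gene of a single exon which supports granulocyte production under inflammatory demand, had the largest fold change of the 10 with all 6 libraries, and it rested on 1 library. It had 27.0, 34.4 and 106.9 CPM in P95H/+, against 30.6, 34.1 and 33.1 CPM in wild type. P95H/+ replicate 3 is the only high library, and the other 5 lie between 27.0 and 34.4 CPM. The log2 fold change of 0.87 (SE 0.52, edgeR adjusted p 1) became -0.03 without P95H/+ replicate 3 and -0.04 (SE 0.13) with 4 libraries. Tmem189, whose exons overlap those of Cebpb on the opposite strand by 312 bases, stood at 31.8 CPM in P95H/+ replicate 3 and at 20.8 to 25.8 CPM in the other libraries. Exons of Cebpa, Cebpd, Runx1 and Etv6 are overlapped in the same way by 51 to 562 bases. The setting of strand in the counting is not given in the sources used here, so reads of such pairs may not be told apart.

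Several genes of the granule and effector list were high in the same library. Mmp9, a gelatinase of neutrophil granules, had 4.06, 7.65 and 218.4 CPM in P95H/+, against 36.2, 8.43 and 27.8 CPM in wild type. Lcn2, an iron-trapping granule protein, had 19.3, 19.3 and 152.2 CPM in P95H/+, against 64.4, 18.1 and 21.7 CPM in wild type. Ltf and Ngp, named after their values were seen, reached 399.1 and 457.3 CPM in P95H/+ replicate 3. They reached 160.9 and 202.8 CPM in wild-type replicate 1, where Cebpb was at 30.6 CPM, and lay at or below 75.2 CPM in the other 4 libraries. The 19 genes of the granule and effector list, none of them at 0, summed to 10788, 9629 and 12183 CPM in P95H/+, against 8602, 8952 and 12981 CPM in wild type, most of it from primary granule genes such as Mpo. Not every member followed. S100a8, a calcium-binding protein of neutrophils, had 128.8 CPM in P95H/+ replicate 3. That was below the 170.7 CPM of P95H/+ replicate 1 and the 171.2 CPM of wild-type replicate 1. S100a9, its partner, had 131.8, 87.7 and 172.6 CPM in P95H/+, against 217.4, 78.7 and 79.6 CPM in wild type. The part of these genes in the Cebpb value was not tested.

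The transcripts of the factors range in GC content from 48.8% for Runx1 to 67.2% for Cebpb, and replicate 3 of each genotype was set beside replicates 1 and 2 against that scale. In P95H/+ the log2 difference of replicate 3 from the mean of replicates 1 and 2 ran from -0.07 for Etv6 (50.4% GC) to 1.81 for Cebpb. In wild type it ran from -1.01 for Klf4 to 1.22 for Gfi1. The medians of all tested genes between 56 and 58% GC were 0.66 in P95H/+ and 0.41 in wild type, so Klf4, at 57.7% GC, stood near the median in P95H/+ at 0.61 and far below it in wild type. Cebpb, at 0.03 in wild type, stood below the median of 0.54 for the 26 genes of 66 to 68% GC there and above that of 0.63 in P95H/+. Cebpd, at 51.1% GC, was higher in replicate 3 by 1.04 in P95H/+ and 0.59 in wild type, where genes between 50 and 52% had medians of 0.05 and 0.10. After a correction for GC content over all genes, the difference between the replicate 3 libraries, P95H/+ minus wild type, was 1.38 for Cebpb, 0.93 for Klf4, 0.65 for Cebpd and 0.57 for Spi1. It was -0.51 for Cebpa and -0.17 for Gfi1, and between -0.02 and 0.20 for Cebpe, Irf8, Runx1 and Etv6. The corrected fit of all 6 libraries gave log2 fold changes of 0.53 (SE 0.25) for Cebpb, 0.46 (SE 0.27) for Gfi1 and 0.29 (SE 0.14) for Spi1, each with an edgeR adjusted p of 1. In that fit 0 of 17144 genes passed (0.0%), and 0 factors had an unadjusted p under 0.05, against 4.26% of all genes.

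**Figure D3:**
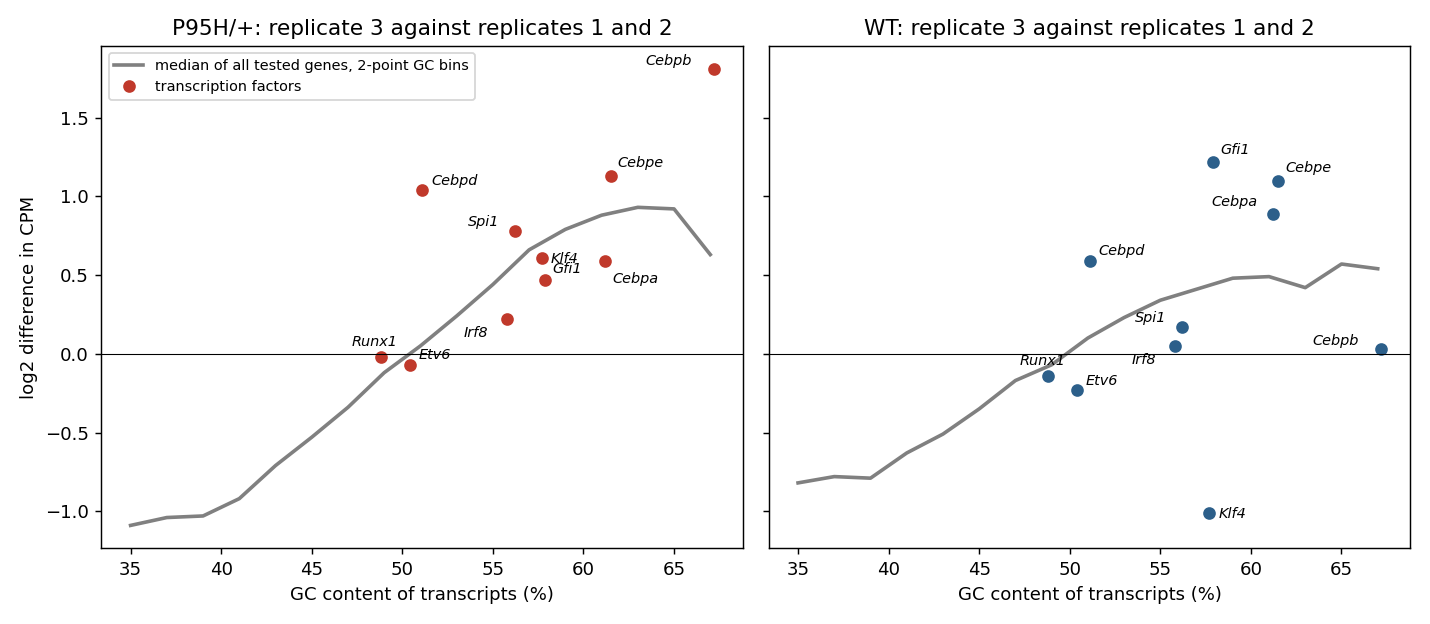
Log2 difference in CPM between replicate 3 and the mean of replicates 1 and 2 (y axis) against the GC content of each gene's transcripts in percent (x axis), in P95H/+ (left) and wild type (right). Points are the 10 factors and the grey line is the median of all tested genes in bins of 2 GC points. The line climbs with GC content in both genotypes up to 62% and is uneven above that. In P95H/+ it falls to 0.63 in the bin of Cebpb, 66 to 68% GC, which holds 26 genes. Cebpb lies above it at 1.81 in P95H/+, and Klf4 lies below it at -1.01 in wild type.

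Balances between factors that oppose or follow each other were compared as count ratios within a library, which do not depend on how libraries are scaled. The GC trend of the replicate 3 libraries can still enter them where the genes differ in GC content, such as Cebpb at 67.2% and Cebpa at 61.2%. The log2 ratio of Gfi1 to Irf8, a neutrophil-favouring over a monocyte-favouring factor, was -1.16, -2.0 and -1.33 in P95H/+ and -2.24, -2.49 and -1.20 in wild type. The difference of means was 0.48 (P95H/+ -1.50 ± 0.44, wild type -1.97 ± 0.68, SD, n = 3 each; exact permutation test, two-sided p = 0.3). It was 0.78 in replicates 1 and 2 and -0.13 in replicate 3. Leaving out 1 library gave 0.22 (without wild-type replicate 2) to 0.86 (without wild-type replicate 3). The ratio of Cebpa to Spi1 was 0.04, 0.23 and -0.06 in P95H/+ and 0.11, 0.23 and 0.89 in wild type, a difference of -0.34 (exact permutation p = 0.3), or -0.10 without wild-type replicate 3. Cebpe to Cebpa, the later over the earlier factor of neutrophil formation, differed by 0.28 (exact permutation p = 0.4), with 0.10 without P95H/+ replicate 3, 0.14 without P95H/+ replicate 1 and 0.59 without P95H/+ replicate 2, and Cebpb to Cebpa by 0.61 (exact permutation p = 0.5). The last was -0.08 in replicates 1 and 2 and 2.0 in replicate 3. It was 0.21 without P95H/+ replicate 3 and 0.33 without wild-type replicate 3. The groups overlapped in all 4 ratios, each p adjusted over the 4 was 0.5, and 3 libraries against 3 cannot give an exact p below 0.1.

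**Figure D4:**
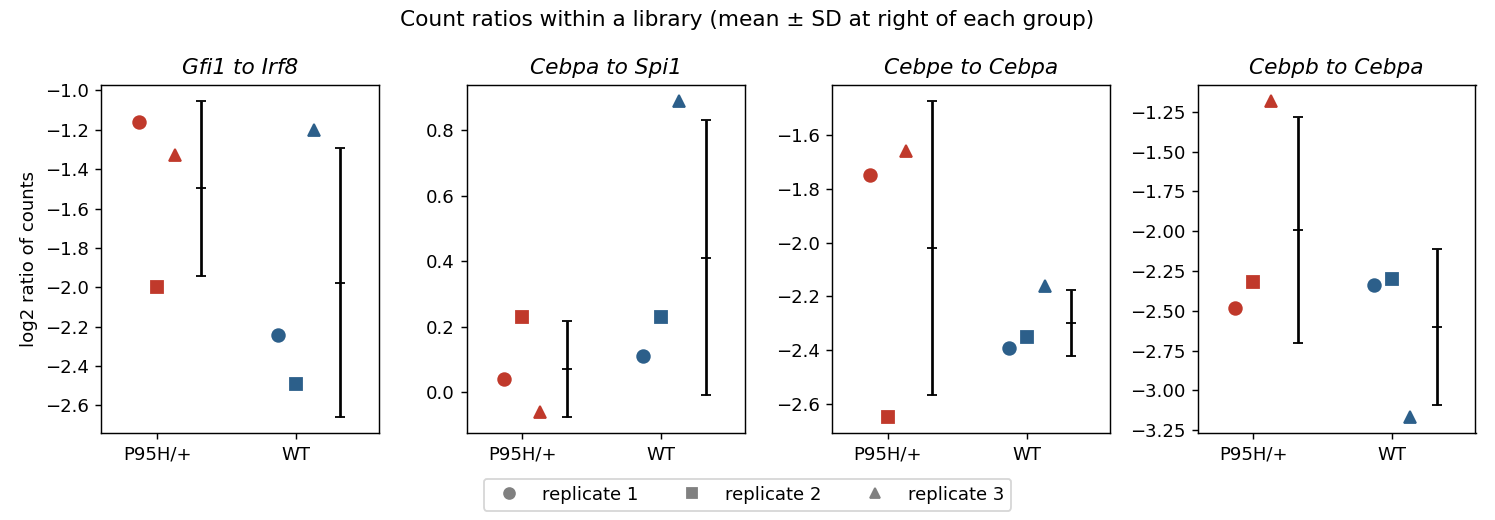
Log2 ratio of counts of 2 factors within each library (y axis; each panel has its own range) in P95H/+ (red, left) and wild type (blue, right), with the mean ± SD beside each group. The groups overlap in each panel, and wild-type replicate 3 stands apart from wild-type replicates 1 and 2 in 3 of them, at -1.20 for Gfi1 to Irf8, 0.89 for Cebpa to Spi1 and -3.17 for Cebpb to Cebpa.

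Of the relatives, regulators, receptor targets and granule targets of the factors, 0 passed edgeR's test with either 6 or 4 libraries, where 0.0% and 0.829% of all genes did. With 6 libraries 1 of them, Irf1, had an unadjusted p under 0.05 (2.11% of all genes). With 4 libraries, 10 of 20 relatives and 10 of 24 tested regulators had one (15.6% of all genes). So did 7 of 14 tested receptor targets and 5 of 19 granule targets. Of 20 relatives and partners, 9 had positive and 11 negative log2 fold changes with 6 libraries (median -0.05), and 3 and 17 with 4 libraries (median -0.21). Irf1, an interferon-induced relative of Irf8, had 66.4, 86.0 and 64.2 CPM in P95H/+, against 125.6, 101.7 and 104.7 CPM in wild type. All P95H/+ values lie below all wild-type values, and the log2 fold change was -0.54 (SE 0.20, edgeR adjusted p 1), and -0.55 (SE 0.14, adjusted p 0.131) with 4 libraries. Klf10, a relative of Klf4 induced by TGF beta, likewise did not overlap, with log2 fold changes of -0.41 (SE 0.21) and -0.55 (SE 0.13, edgeR adjusted p 0.111). With 6 libraries, groups of 7.84% of all tested genes did not overlap. In the 4 lists, those of Runx2, Trib1, Id1, Cd14 and Tlr2 did not either, all but Tlr2 named after their values were seen.

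Of 24 tested regulators, 14 were positive and 10 negative with 6 libraries (median 0.04), and 5 and 19 with 4 (median -0.32). Maf, a monocyte and macrophage factor, had 1.29, 1.64 and 1.68 CPM in P95H/+, against 4.30, 3.36 and 1.54 CPM in wild type, with a log2 fold change of -0.95 (SE 0.41) and, with 4 libraries, -1.35 (SE 0.26, edgeR adjusted p 0.0511). Id3, an inhibitor of helix-loop-helix factors, had -0.77 (SE 0.45) and -1.33 (SE 0.34). Of 14 tested receptor targets, 11 were positive and 3 negative (median 0.07), and 7 and 7 with 4 libraries (median -0.02). Csf3r, the G-CSF receptor, had 0.46 (SE 0.32) with 6 libraries and 0.29 (SE 0.09) with 4, and Tlr2, a receptor of bacterial lipoproteins, had -0.37 (SE 0.22) and -0.39 (SE 0.11). All 19 granule and effector targets were positive with 6 libraries (median 0.15), among them Mmp9 at 1.78 (SE 1.39) and Lcn2 at 0.98 (SE 0.91). With 4 libraries 9 were positive and 10 negative (median -0.04), with Mmp9 at -1.90 (SE 1.07) and Lcn2 at -1.06 (SE 0.85).

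**Figure D5:**
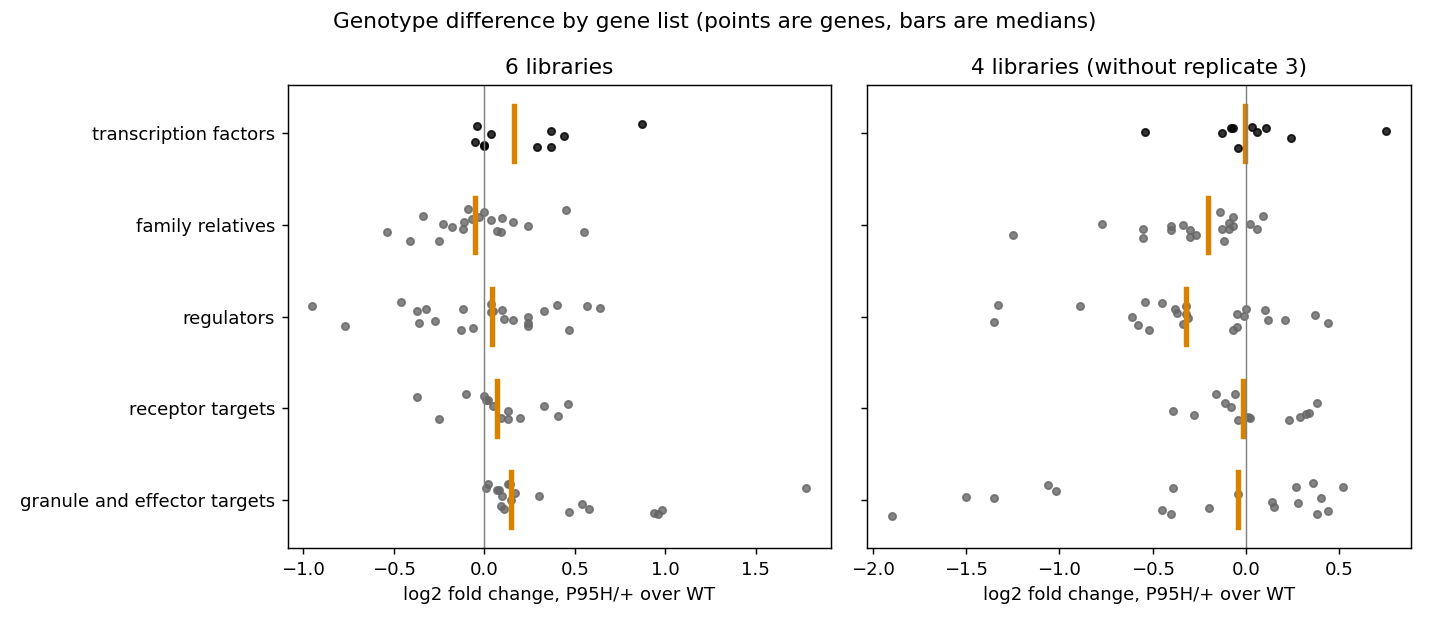
Log2 fold change of P95H/+ over wild type (x axis) for the 10 factors and 4 lists of related genes, with 6 libraries (left) and with the 4 libraries of replicates 1 and 2 (right). Points are genes and orange bars are medians, which for the factors lie at 0.17 and -0.01 and for their regulators at 0.04 and -0.32.

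Of the 10 factors, 8 are given here with the gene of these 4 lists, among 72 with a mean of at least 5 CPM, whose centred log2 CPM differed least over the 6 libraries (root mean square). Irf8 lay nearest to Csf1r, the M-CSF receptor (0.063), and Gfi1 to Prtn3, a primary granule protease (0.182). Cebpd lay nearest to Csf3r (0.128), Spi1 to Myc (0.106), Cebpa to E2f1 (0.079) and Cebpe to Gfi1b (0.196). Cebpb lay nearest to Zfpm1, a cofactor of GATA factors (0.244), which stood at 418.8 CPM in P95H/+ replicate 3 and 115 to 199 CPM elsewhere. Klf4 lay nearest to Jun (0.215). The GC trend of the replicate 3 libraries enters these distances. Some gene of the 72 is always nearest, and shared regulation was not tested. The second nearest gene lay almost as close for Cebpe (0.21) and Klf4 (0.237), but further off for Irf8 (0.138) and Cebpa (0.157).

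Markers of the cell types that the sort could hold were summed per library, and their log2 fold changes are for 6 libraries unless 4 are named. The labels call the cells immature and multipotent, and both stem markers and primary granule genes were present in every library. Stem and multipotent markers summed to 1066 to 1318 CPM in P95H/+, against 1157 to 1442 CPM in wild type, with 11 of 12 negative (median log2 fold change -0.37, and -0.45 with 4 libraries; Procr at -0.52 and Fgd5 at -0.50). Most of that sum was Kit, the sort marker, and Cd34. They had 475.7 and 316.1 of 1066 CPM in P95H/+ replicate 1, and 520.5 and 406.8 of 1442 CPM in wild-type replicate 1. Erythroid markers summed to 950 to 1915 CPM in P95H/+, against 1101 to 1415 CPM in wild type (median 0.19; Car2 at 0.32, Klf1 at 0.73). With 4 libraries their median turned to -0.11, with 5 of 12 positive, and Slc4a1, the red cell anion exchanger, had a log2 fold change of 0.82 with 6 libraries and -1.10 with 4 (edgeR adjusted p 0.00349). Megakaryocyte markers summed to 203 to 413 CPM in P95H/+, against 181 to 289 CPM in wild type (median 0.44; Gp1ba at 0.61, Selp at 1.09). All 9 tested were positive, and with 4 libraries 6 of 9 were (median 0.06). Monocyte and dendritic markers summed to 1319 to 1859 CPM in P95H/+, against 1568 to 1827 CPM in wild type (median -0.11, and -0.34 with 4 libraries). Of 12 tested, 3 were positive and 9 negative, and those of smallest p were Adgre1 at -0.36 and Flt3 at -0.37. Mast and basophil markers summed to 338 to 446 CPM in P95H/+, against 329 to 487 CPM in wild type (median -0.02, and -0.11 with 4 libraries). Of 7 tested, 3 were positive and 4 negative, and those of smallest p were Cpa3 at -0.66 and Prss34 at -0.29. B lineage markers summed to 118 to 245 CPM in P95H/+, against 145 to 195 CPM in wild type (median -0.02, 4 of 9 positive; Cd79b at -0.27, Ptprcap at 0.20). With 4 libraries all 9 B lineage markers were negative (median -0.74), and 0 passed edgeR's test. T and NK markers summed to 4.95 to 13.9 CPM in P95H/+, against 10.3 to 26.1 CPM in wild type (median -0.82, and -1.39 with 4 libraries; Trbc1 at -1.56, Ncr1 at -1.82). The 8 genes of antigens that lineage depletion commonly targets, which the labels do not list, summed to 226 to 411 CPM in P95H/+, against 198 to 520 CPM in wild type (median -0.05, and -0.68 with 4 libraries; Cd4 at -0.64). Nearly all of that sum was Ptprc, with 381 of 411 CPM in P95H/+ replicate 2 and 468 of 520 CPM in wild-type replicate 1, so it does not read lineage antigens. P95H/+ replicate 3 held the highest erythroid, megakaryocyte and B lineage sums, at 1915, 413 and 245 CPM, and their part in its Cebpb and Spi1 values was not tested. The GC trend of the replicate 3 libraries enters these sums. Gp6, Cma1 and Cd3g had 0 counts in at least 1 library, and no other marker did.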

How the data were processed

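Total RNA of sorted cells was depleted of ribosomal RNA and sequenced from stranded paired-end libraries, per the labels' protocols. The authors deposited raw counts per gene and 2 tables of CPM, and the submitters' processing notes name STAR 2.5.3a, featureCounts of Subread 1.5.1 and mm10. The deposited CPM equalled each count over its library total within 5e-04. All results start from the counts. The genotype contrast was fitted by edgeR 4.0.16 under R 4.3.3 (TMM scaling, filterByExpr, robust quasi-likelihood F test, two-sided, Benjamini-Hochberg over all tested genes, threshold 0.05). The SE follows from the F statistic. Ratios used a pseudocount of 0.5 counts and an exact permutation test. Positions, exon lengths and transcript GC content came from GENCODE M21 on mm10. The GC correction was an offset from a natural spline with 4 degrees of freedom, available for 17078 tested genes. The code was tested on simulated counts.

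Deviations of same-numbered libraries from their group means correlated at 0.372, 0.348 and 0.613, which meets a threshold of 0.1 for pairing taken from the replicate numbers in the labels, and the shared shift of replicate 3 enters these values. Differently numbered libraries reached 0.463 (P95H/+ replicate 2 with wild-type replicate 1) and 0.386 (P95H/+ replicate 1 with wild-type replicate 2), so replicates 1 and 2 were not told apart by number. Alternatives were other scalings, no filter, DESeq2 1.42.0, limma 3.58.1 (voom with sample quality weights), sex or the replicate number in the model, the GC correction, and leaving out libraries. Second choices within the 4 libraries were added after the data were seen. All 10 factors, the 12 gene lists and the tests were chosen with earlier results of these data known. Named genes are the factors, per list those past the test or else the 2 of smallest p, and the nearest list gene of each factor. Of the genes in the lists, 1 (Mcpt4) had no row. Some results that this rule would name are not reported here.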

Additional observations from a re-analysis of the deposited data

How the results depend on the processing

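Across the settings with 6 or 5 libraries, 0 of the 10 factors passed an adjusted p of 0.05 (edgeR, DESeq2 and limma voom), with adjusted p between 0.339 and 1 for Gfi1. limma voom with sample quality weights gave 2 of the 10, Gfi1 and Klf4, at an unadjusted p under 0.05 (12.1% of all genes). Of all genes, DESeq2 called 7, limma voom 97 (0.566%), and the fit with the replicate block 1. Leaving out 1 of 6 libraries called 0 to 1 genes, the 1 being without wild-type replicate 3.

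Without replicate 3 of both genotypes, 144 genes and 1 factor (Klf4) passed. Within these 4 libraries, genes called numbered 295 with DESeq2, 182 with RLE scaling, 101 with library totals alone, 185 without a filter, 124 with the replicate block and 589 with sex in the model. The factors passing numbered 1 under each of these except library totals alone, with 0. Leaving out 1 of the 4 gave 99 to 830 genes and 0 to 3 factors, the lone library being assumed to vary like the others. The 3, without P95H/+ replicate 2, were Klf4, Gfi1 (edgeR adjusted p 0.000284) and Cebpe (0.0363). Klf4 stayed negative in all 11 settings with 4 or 3 libraries, from -0.65 to -0.44, and was called in 9. Gfi1 ran from 0.42 to 1.03.

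The sign of 8 fold changes turned under at least 1 setting, among them that of Cebpb, the largest. Those of Runx1 and Klf4 round to 0.00 in the main fit, so a turn of their sign says little. Cebpa was 0.01 in voom, 0.14 with sex and 0.03 with 4 libraries. Cebpb was -0.04 with 4 libraries. Irf8 was -0.04 with library totals, -0.08 in voom and -0.07 with 4 libraries. Runx1 was -0.07 with library totals, -0.02 in voom, -0.01 without a filter, 0.00 with sex and -0.08 with 4 libraries. Klf4 was 0.02 in DESeq2 and with the replicate block, and 0.03 with RLE scaling and with sex. The cause was not tested. Leaving out 1 of 6 libraries gave ranges of -0.31 to 0.29 for Cebpa, -0.03 to 1.19 for Cebpb, -0.09 to 0.60 for Cebpd, -0.19 to 0.74 for Cebpe, -0.08 to 0.17 for Irf8, -0.05 to 0.05 for Runx1, -0.12 to 0.02 for Etv6 and -0.28 to 0.22 for Klf4. Spi1 and Gfi1 stayed positive in all 15 alternatives. The log2 ratio of Cebpb to Cebpa turned to -0.08 without replicate 3, and the other 3 ratios kept their sign in each of their 9 alternatives. The replicate block changed no other call. The sum of counts limits the low genes most in P95H/+ replicate 3, the shallowest library.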
